A study of Homo sapiens with 8 samples.

Results

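The 10 enzymes described here make serine from a glycolytic intermediate and pass its side-chain carbon into the folate pool. They are PHGDH, PSAT1 and PSPH of serine synthesis, SHMT1 and MTHFD1 of the cytosolic folate arm, and SHMT2, MTHFD2, MTHFD2L, MTHFD1L and ALDH1L2 of the mitochondrial arm. They were chosen by name, with earlier results of these data known. All 10 were counted in each of the 8 libraries, among 20453 gene IDs per library. The cells are labelled THP-1, an established human monocytic leukaemia line. They were transduced with DNMT3A carrying the substitution R882H, called mut here, or with wild-type DNMT3A, called wt. DNMT3A is a DNA methyltransferase, and R882H is a recurrent substitution of acute myeloid leukaemia. Polyadenylated mRNA and ribosome footprints, the stretches of mRNA that a ribosome shields from nuclease, were each sequenced in 2 mut and 2 wt libraries. Nothing in the labels says that replicates came from separate cultures, so p-values measure only how far these libraries lie apart, and that distance may be technical.

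Serine synthesis starts from 3-phosphoglycerate, which PHGDH oxidises, PSAT1 aminates and PSPH dephosphorylates to serine. A serine hydroxymethyltransferase then moves the side-chain carbon of serine to tetrahydrofolate and leaves glycine, SHMT1 in the cytosol and SHMT2 in mitochondria. In mitochondria the carbon is oxidised by MTHFD2 or MTHFD2L and released as formate by MTHFD1L, or as carbon dioxide by ALDH1L2, and formate returns to the cytosolic pool through MTHFD1 for purine and thymidylate synthesis. Several of these genes are known targets of ATF4, the transcription factor of the amino acid and integrated stress response, and proliferating cells are known to depend on mitochondrial one-carbon flux.

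The 3 serine synthesis mRNAs rose in mut, by 0.19 to 0.38 on the log2 scale, where 18.9% of 10756 genes tested rose. Footprints on PHGDH and PSAT1 rose by 0.32 and 0.39, where 10.3% of 9181 genes tested rose, and those on PSPH did not pass (adjusted p = 0.396). Of the 3 mRNA calls, DESeq2 made that of PSAT1 alone (adjusted p = 0.0494), and removing the trend with local gene density left that of PSPH alone, with PSAT1 at 0.024. The mitochondrial folate arm moved both ways: MTHFD2 mRNA was higher in mut while its footprints were lower, SHMT2 and MTHFD2L footprints were lower, and ALDH1L2 rose about 2-fold in both assays. Of the cytosolic arm, neither SHMT1 nor MTHFD1 passed a test.

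Upstream sequence is shown for 4 members: PHGDH and PSAT1, whose mRNA and footprints rose together, MTHFD2, whose mRNA and footprints moved apart, and MTHFD1L, which holds the motif searched for. Each is the 250 bases before an annotated transcript start on the plus strand, from RefSeq on GRCh38.p14, at chr1:119711684-119711933, chr9:78296875-78297124, chr2:74198365-74198614 and chr6:150866236-150866485 in the order of the lines.
PHGDH: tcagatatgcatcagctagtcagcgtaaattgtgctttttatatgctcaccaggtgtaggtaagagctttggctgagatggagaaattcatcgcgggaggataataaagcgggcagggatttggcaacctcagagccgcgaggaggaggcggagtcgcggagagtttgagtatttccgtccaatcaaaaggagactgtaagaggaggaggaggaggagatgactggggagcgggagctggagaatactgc
PSAT1: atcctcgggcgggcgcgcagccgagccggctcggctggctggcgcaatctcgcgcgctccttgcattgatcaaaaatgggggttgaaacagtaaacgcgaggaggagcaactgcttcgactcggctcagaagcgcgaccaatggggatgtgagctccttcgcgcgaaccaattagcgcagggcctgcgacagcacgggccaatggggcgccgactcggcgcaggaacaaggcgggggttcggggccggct
MTHFD2: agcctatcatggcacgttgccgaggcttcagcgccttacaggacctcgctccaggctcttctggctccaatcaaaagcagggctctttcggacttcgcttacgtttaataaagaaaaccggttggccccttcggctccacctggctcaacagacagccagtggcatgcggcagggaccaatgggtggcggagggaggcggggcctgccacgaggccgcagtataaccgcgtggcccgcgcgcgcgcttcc
MTHFD1L: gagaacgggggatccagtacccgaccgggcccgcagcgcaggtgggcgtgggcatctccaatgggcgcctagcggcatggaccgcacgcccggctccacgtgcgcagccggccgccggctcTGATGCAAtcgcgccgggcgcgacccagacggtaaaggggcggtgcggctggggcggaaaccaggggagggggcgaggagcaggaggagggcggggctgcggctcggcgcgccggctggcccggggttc
Capitals mark TGATGNAA, the core of the composite element that ATF4 binds with C/EBP proteins, searched on both strands (TTNCATCA on the other) in windows of 250 bases before to 50 bases after each start. Of the 10 members, 7 had an entry among the sequences used here, and PSPH, SHMT2 and ALDH1L2 had none and were not searched. Among these 7, a match was found for MTHFD1L alone, where 4.46% of 27305 genes and 3.62% of 35116 windows held a match. It appears at 3 of the 4 listed starts of MTHFD1L, whose windows overlap, and is the same site each time. For the first of these starts the site lies after the start. In the window printed, it begins 129 bases before the start. The match is a description of letters, and its absence says only that these letters are not in a window.

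Depth and the check of the labels set the precision. Totals were 3901659 to 4393445 counts in mut and 3415999 to 4523475 in wt mRNA libraries, and 603360 to 944824 in mut and 1611724 to 1988513 in wt footprint libraries. Levels are CPM, counts per 1000000 counted reads. A count of 3, the limit that a count of 0 allows, equals 0.663 to 0.878 CPM in mRNA and 1.51 to 4.97 CPM in footprints, and covers counting error only. The least counted member was PSPH in the second mut footprint library, with 20 reads. All CPM values are scaled by TMM factors within an assay, and none is per length, so levels are compared within a gene and not between genes. DNMT3A mRNA had 241 and 244 CPM in mut and 291 and 294 CPM in wt (log2 fold change -0.27), and its footprints had 143 and 148 CPM in mut and 137 and 153 CPM in wt. Reads from the transduced copy and from the cells' own gene are counted together here, so they do not check the genotype. Of 12 monocyte and macrophage markers, 3 (LYZ, SPI1 and CD68) reached 10 CPM in every library. S100A8, S100A9, CD163, FCN1, IRF8 and MPO were at 0 in all 8, and the summed level was 86.5 and 93.7 CPM in mut and 92.1 and 99.8 CPM in wt mRNA. All 12 erythroid markers reached 10 CPM in every mRNA library, with summed levels of 1882 and 1939 CPM in mut and 2293 and 2352 CPM in wt, and 7 of the 12 mRNAs were lower in mut. The markers therefore go against the label THP-1, and the part of the erythroid difference in the results below was not tested. In bulk libraries, fewer cells of a type and less RNA per cell cannot be told apart.

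**Figure D1:**
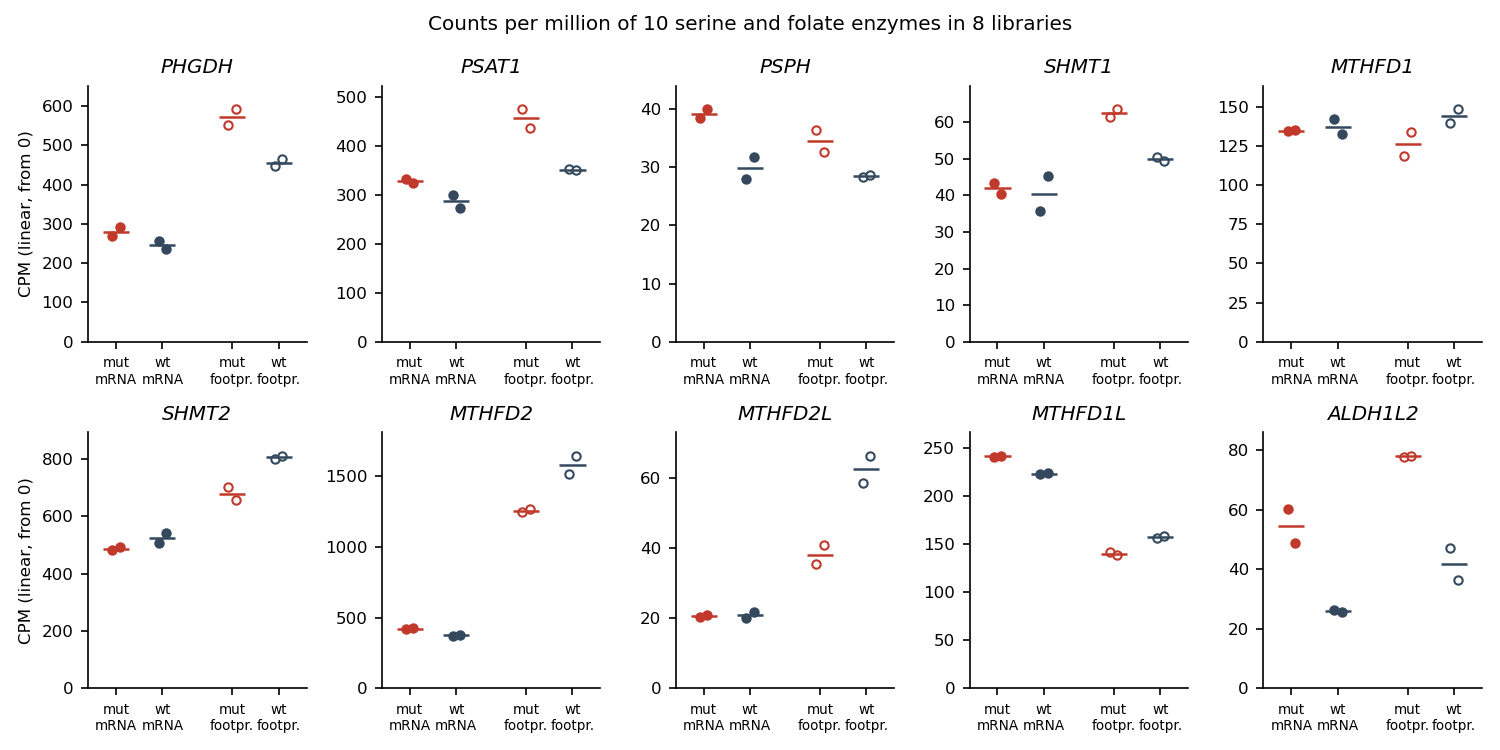
CPM (linear axis from 0) of each of the 10 enzymes, by library, with mut left of wt within each assay; filled points are mRNA libraries, open points footprint libraries, and each bar is the mean of 2 libraries. MTHFD2 mRNA lay at 422 and 424 CPM in mut, above 372 and 377 CPM in wt, while its footprints lay at 1244 and 1271 CPM in mut, below 1519 and 1645 CPM in wt.

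PHGDH (ENSG00000092621, chr1:119711934-119744215), the first and committed enzyme of the pathway, had 268 and 293 CPM of mRNA in mut and 255 and 237 CPM in wt. Its footprints were 551 and 591 CPM in mut and 447 and 464 CPM in wt. Both mut libraries lay above both wt libraries in each assay. The log2 fold change, mut over wt, was 0.19 ± 0.054 in mRNA (SE, adjusted p = 0.00175) and 0.32 ± 0.066 in footprints (adjusted p = 0.000117), by the quasi-likelihood test of edgeR, adjusted by Benjamini-Hochberg over all genes. The difference between the assays, 0.12 with a 95% interval of -0.05 to 0.29, did not pass the test (adjusted p = 0.484). Its mRNA call was lost without the second wt library (0.14, adjusted p = 0.198), without the second mut library (0.14, adjusted p = 0.0506) and with DESeq2 (adjusted p = 0.0829).

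PSAT1 (ENSG00000135069, chr9:78297125-78330093), which moves an amino group from glutamate to the PHGDH product, had 333 and 324 CPM of mRNA in mut and 301 and 273 CPM in wt. Footprints were 476 and 438 CPM in mut and 353 and 351 CPM in wt. The groups did not overlap in either assay. PSAT1 rose by 0.20 in mRNA (adjusted p = 0.000471) and by 0.39 in footprints (1.31-fold, adjusted p = 1.2e-05), and the difference of 0.19 between assays did not pass (adjusted p = 0.250). The mRNA call was lost without the second wt library (0.13, adjusted p = 0.200) and the footprint call without the first mut footprint library (0.32, adjusted p = 0.0941).

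PSPH (ENSG00000146733, chr7:56011064-56051444), the phosphatase that releases serine, had 38.4 and 40.0 CPM of mRNA in mut and 28.04 and 31.8 CPM in wt. It rose by 0.38 ± 0.129 in mRNA (adjusted p = 0.0125). In footprints, 36.4 and 32.6 CPM in mut against 28.3 and 28.7 CPM in wt gave 0.29, with an interval of -0.16 to 0.74 that includes 0 (adjusted p = 0.396). The mut values were above the wt values in both assays, on 20 to 56 footprint reads per library. The mRNA call was lost with DESeq2 (adjusted p = 0.166), without the first wt library (0.30, adjusted p = 0.132) and without the second mut library (0.35, adjusted p = 0.0534).

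Summed over the 3 enzymes, serine synthesis held 640 and 657 CPM of mRNA in mut and 584 and 542 CPM in wt. In footprints the sums were 1063 and 1062 CPM in mut and 828 and 843 CPM in wt. So the mut libraries were above the wt libraries in both assays.

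The cytosolic arm showed no call in any comparison. SHMT1 (ENSG00000176974, chr17:18327873-18363550), the cytosolic serine hydroxymethyltransferase, had 43.3 and 40.5 CPM of mRNA in mut and 35.7 and 45.2 CPM in wt, so the groups overlapped (log2 fold change 0.032, interval -0.20 to 0.26). Its footprints were 61.3 and 63.5 CPM in mut and 50.4 and 49.3 CPM in wt. That difference, 0.32 with an interval of -0.02 to 0.67, did not pass (adjusted p = 0.188), although the groups did not overlap.

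MTHFD1 (ENSG00000100714, chr14:64388353-64460025), the cytosolic enzyme with 3 activities that interconverts formate and methylene folates, had 134.5 and 134.9 CPM of mRNA in mut and 142 and 132 CPM in wt. Footprints were 118 and 134 CPM in mut and 139.8 and 148 CPM in wt. The mRNA groups overlapped, and the footprint groups did not, with mut lower. Neither the mRNA difference of -0.021 nor the footprint difference of -0.22 (interval -0.45 to 0.02, adjusted p = 0.190) passed. Summed, the cytosolic arm held 178 and 175 CPM of mRNA in mut and 178 and 177 CPM in wt, and 179.7 and 197 CPM of footprints in mut and 190.2 and 198 CPM in wt, so the groups overlapped in both assays.

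SHMT2 (ENSG00000182199, chr12:57229711-57234935), the mitochondrial counterpart of SHMT1, had 481 and 493 CPM of mRNA in mut and 506 and 542 CPM in wt. Footprints were 702 and 657 CPM in mut and 802 and 812 CPM in wt. Both mut libraries were below both wt libraries in each assay. It fell by 0.11 in mRNA (adjusted p = 0.0360) and by 0.24 in footprints (adjusted p = 0.000954), and the difference of -0.13 between assays did not pass (interval -0.27 to 0.01). The mRNA call was lost with DESeq2 (adjusted p = 0.223), with no low-count filter (adjusted p = 0.117), without the first mut library (-0.09, adjusted p = 0.127), the first wt library (-0.15, adjusted p = 0.0562) or the second wt library (-0.051, adjusted p = 0.628). The footprint call was lost with DESeq2 (adjusted p = 0.0527), and without the first (-0.30, adjusted p = 0.0536) or the second (-0.20, adjusted p = 0.0702) mut footprint library.

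MTHFD2 (ENSG00000065911, chr2:74198615-74217565), the mitochondrial dehydrogenase and cyclohydrolase that is high in embryonic and tumour cells, moved in opposite directions in the 2 assays. Its mRNA was 422 and 424 CPM in mut and 372 and 377 CPM in wt, a rise of 0.18 ± 0.047 (adjusted p = 0.00106). Its footprints were 1244 and 1271 CPM in mut and 1519 and 1645 CPM in wt, a fall of 0.34 on the log2 scale (0.792-fold, adjusted p = 1.2e-08). The groups did not overlap in either assay. In the test of the genotype effect on footprints against that on mRNA, the log2 value was -0.51 ± 0.066 (SE, interval -0.64 to -0.38, adjusted p = 2.4e-08). Among 9166 genes tested, 13 had a smaller adjusted p in this comparison, and 633 had a lower value. The call was made in 15 of 16 settings, including every one that left out a library (-0.57 to -0.45). The exception was an assumed coefficient of variation of 10% for every gene, with an adjusted p of 0.715. The mRNA call was lost without the first wt library (0.17, adjusted p = 0.05002). RefSeq names 7 pseudogenes after MTHFD2, 4 after PSAT1 and 1 each after PSPH, SHMT1 and MTHFD1. They were not analysed here, and how reads that match several places were counted is not given in the sources used here, so the levels of these 5 members are uncertain.

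MTHFD2L (ENSG00000163738, chr4:74114560-74303099), the paralog of MTHFD2 that adult tissues express, had 20.4 and 20.9 CPM of mRNA in mut and 20.1 and 21.7 CPM in wt, so the groups overlapped. Its footprints were 35.3 and 40.7 CPM in mut and 58.6 and 66.2 CPM in wt, with 34 and 25 reads in mut and 93 and 129 reads in wt. The footprints were 0.597-fold in mut relative to wt (log2 fold change -0.74 ± 0.192, adjusted p = 0.00212). The difference between assays was -0.72, with an interval of -1.22 to -0.22, and did not pass after adjustment (adjusted p = 0.0861). The footprint call was lost without the first mut footprint library (-0.62, adjusted p = 0.204).

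MTHFD1L (ENSG00000120254, chr6:150865702-151101887), the mitochondrial synthetase that releases formate, had 241 and 242 CPM of mRNA in mut and 222 and 223 CPM in wt. Footprints were 141 and 138 CPM in mut and 156 and 158 CPM in wt. The groups did not overlap in either assay, higher in mut for mRNA and lower in mut for footprints. None of the 3 tests passed, at 0.11 in mRNA (adjusted p = 0.0930), -0.17 in footprints (adjusted p = 0.304) and -0.28 between assays (interval -0.52 to -0.04, adjusted p = 0.212).

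ALDH1L2 (ENSG00000136010, chr12:105019790-105084458), the mitochondrial dehydrogenase that oxidises formyl folate to carbon dioxide and makes NADPH, had 60.2 and 48.9 CPM of mRNA in mut and 26.3 and 25.5 CPM in wt. Footprints were 77.9 and 78.2 CPM in mut and 47.2 and 36.4 CPM in wt. No mut library overlapped with a wt library in either assay. It was 2.12-fold higher in mut in mRNA (log2 1.08 ± 0.123, adjusted p = 2.3e-16), where 34 of 10756 genes had a higher value, and 1.89-fold higher in footprints (log2 0.92 ± 0.172, adjusted p = 1.8e-05). The difference between assays was -0.17, with a wide interval of -0.60 to 0.26 (adjusted p = 0.755). Leaving out a library gave 0.92 to 1.22 in mRNA, always called, while the footprint call was lost without the first mut footprint library (0.92, adjusted p = 0.0533).

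Counted together, 5 of the 10 mRNAs rose and 1 fell, where 37.8% of 10756 genes passed in either direction, 18.9% upward and 18.9% downward. In footprints 3 rose and 3 fell, where 21.2% of 9181 genes passed, 10.3% upward and 11% downward. In footprints per mRNA 1 fell and 0 rose, where 4.11% of 9166 genes passed, 1.78% upward and 2.33% downward. In mRNA both mut libraries lay above both wt libraries for 6 of the 10 and below them for 1, where 34% of all genes tested lay above and 33.9% below. In footprints they lay above for 5 and below for 5, where 29.5% of all genes tested lay above and 29.3% below. The 10 had a median log2 change of 0.14 (mRNA), 0.061 (footprints) and -0.15 (footprints per mRNA), and all genes tested had medians of -0.0020, 0.0055 and 0.0045. With an assumed coefficient of variation of 10%, in place of the 2.25% estimated between mRNA libraries and the 1.92% between footprint libraries, only ALDH1L2 passed in mRNA (adjusted p = 3.4e-05) and in footprints (adjusted p = 0.00904), and 0 of the 10 passed in footprints per mRNA.

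**Figure D2:**
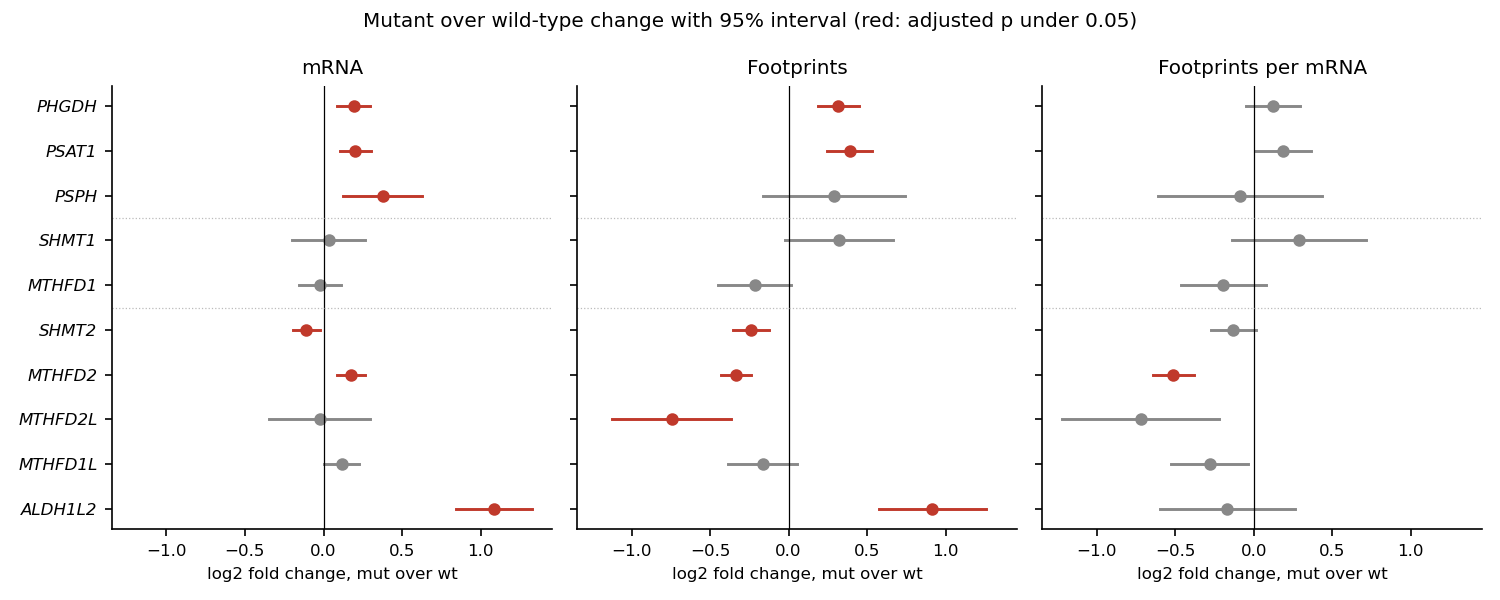
Log2 fold change, mut over wt, of the 10 enzymes in the 3 comparisons (mRNA, footprints, footprints per mRNA), with 95% intervals from edgeR, in red where the adjusted p was under 0.05 and in grey elsewhere. ALDH1L2 stood at 1.08 in mRNA and 0.92 in footprints, and MTHFD2 at 0.18 in mRNA and -0.34 in footprints, with -0.51 for footprints per mRNA.

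The 5 mitochondrial enzymes did not move together. In mRNA 2 rose, 1 fell and 2 did not pass, where 18.9% of all genes tested rose and 18.9% fell. Their median was 0.11. In footprints 1 rose, 3 fell and 1 did not pass, where 10.3% of all genes tested rose and 11% fell. The footprint median was -0.24. All but ALDH1L2 had fewer footprints in both mut libraries than in both wt libraries, as did 29.3% of all genes tested. The summed mitochondrial arm held 1225 and 1228 CPM of mRNA in mut and 1147 and 1190 CPM in wt, so mut was higher. In footprints it held 2200.5 and 2185 CPM in mut and 2583 and 2717 CPM in wt, so mut was lower.

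As a share of the counts of the 7 folate enzymes, the mitochondrial arm held 87.4% ± 0.131 of mRNA in mut and 86.8% ± 0.322 in wt (SD, n = 2 each). Of footprints it held 92.1% ± 0.513 in mut and 93.2% ± 0.055 in wt (SD, n = 2 each). The difference, mut minus wt, was 0.62 percentage points in mRNA and -1.09 in footprints, and the groups did not overlap in either. With the mean of log2 CPM of each arm in place of the sum, the difference was 3.71 percentage points in mRNA and -2.50 in footprints. The share is of reads, not of molecules, since longer coding sequences collect more reads. MTHFD2 alone held 34.5% and 34.5% of the mitochondrial arm's mRNA counts in mut and 32.4% and 31.7% in wt, and 56.5% and 58.2% of its footprints in mut and 58.8% and 60.5% in wt. Not corrected for length, the ratio of SHMT2 to SHMT1 reads was 11.1 and 12.2 in mut and 14.2 and 12 in wt mRNA, so the groups overlapped. In footprints it was 11.5 and 10.3 in mut and 15.9 and 16.5 in wt, and the groups did not overlap.

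Within a genotype, the ratio of footprint CPM to mRNA CPM placed the enzymes far apart among all genes, and most of all MTHFD2. Its ratio was 2.97 in mut and 4.23 in wt, above 98.4% of 9166 genes in mut and 99.6% in wt. PHGDH was next in mut and MTHFD2L next in wt: PHGDH lay at the 91.8 percentile in mut and the 88.3 percentile in wt, and MTHFD2L at the 88.1 percentile in mut and the 98.4 percentile in wt. At the other end MTHFD1L had a log2 ratio of -0.79 in mut and -0.50 in wt, at the 16.5 percentile in mut and the 26.8 percentile in wt. The other 6 lay at the 40.6 to 77.8 percentile in mut and the 45.5 to 81.5 percentile in wt. The assays were prepared by different protocols, which may affect genes unequally. So the rank among genes describes read counts and not ribosomes per molecule. The ranks of the members with named pseudogenes, MTHFD2 among them, are uncertain as well.

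**Figure D3:**
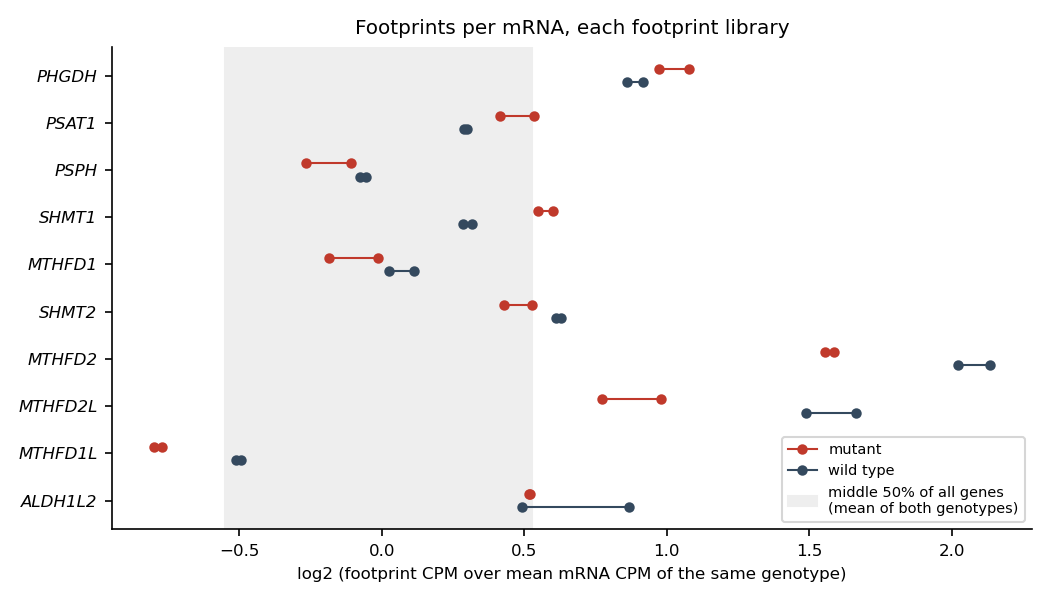
Log2 ratio of footprint CPM to mean mRNA CPM for each enzyme, with mut drawn above wt, 1 point per footprint library, and the span between the lower and upper quartile of all genes shaded (mean of both genotypes). MTHFD2 lay highest in both genotypes, at 1.57 in mut and 2.08 in wt, and MTHFD1L lowest, at -0.79 in mut and -0.50 in wt.

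In these libraries the mRNA change of a gene ran with the number of genes near it, counted as protein-coding RefSeq genes within 500000 bases on each side. SHMT2 with 31 and MTHFD2 with 30 neighbours lay in dense regions, where the mRNA trend of all genes ran at -0.17, and PSAT1 with 2 and ALDH1L2 with 6 in sparse ones, where it ran at 0.18 and 0.15. With the trend removed, the mRNA changes of PHGDH (0.10), PSAT1 (0.024) and SHMT2 (0.064) no longer passed, and neither did that of SHMT2 in footprints (-0.11). Those of ALDH1L2, MTHFD2 and PSPH in mRNA still passed, at 0.94, 0.34 and 0.33. In footprints ALDH1L2 (0.80), PHGDH (0.24), PSAT1 (0.22), MTHFD2 (-0.21) and MTHFD2L (-0.76) still passed, and MTHFD2 in footprints per mRNA became -0.56.

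**Figure D4:**
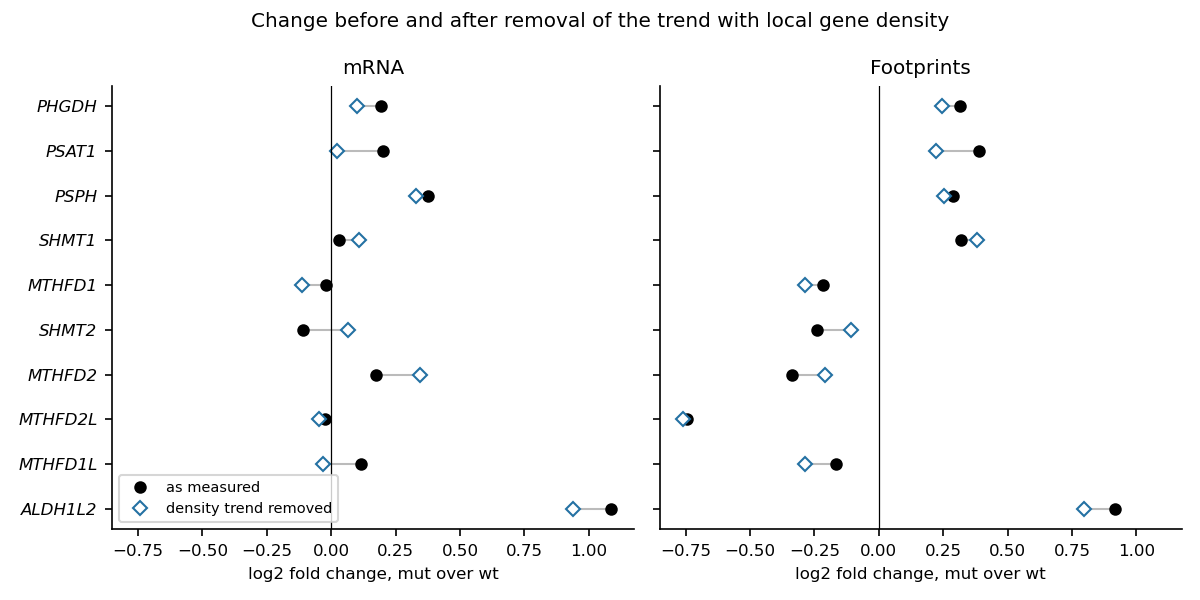
Log2 fold change, mut over wt, of each enzyme in mRNA and in footprints, as measured (filled circles) and once the local density trend was taken out (open diamonds). On removing the trend, PSAT1 moves from 0.20 to 0.024, SHMT2 from -0.11 to 0.064 and ALDH1L2 from 1.08 to 0.94 in mRNA, and ALDH1L2 moves from 0.92 to 0.80 in footprints.

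The genes whose pattern over the 8 libraries, centred within each assay, was most like that of a member were picked by Pearson's r as a description. For PHGDH these included PSME3 (r = 0.99) and NUDT21 (r = 0.97), of 3067 genes searched, 87 of them above 0.9. For MTHFD2 they were LSM3, FH and NIFK (r = 0.98 to 0.99), with 55 above 0.9. All 3 were picked for a pattern like that of MTHFD2, so their higher mut mRNA and lower mut footprints follow from that choice. FH had 301 and 309.5 CPM of mRNA in mut and 280.1 and 278 CPM in wt, against 466 and 466 CPM of footprints in mut and 554 and 576 CPM in wt. For ALDH1L2 they were TMEM209, CAPZA1 and REXO2 (each r = 0.99), with 326 genes above 0.9. With 2 libraries per group, such values mostly carry the differences between 4 groups.

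Of 25 other genes of folate and glycine metabolism, 15 were tested in mRNA and 3 rose, 3 fell and 9 did not pass, where 18.9% of all genes tested rose and 18.9% fell. The counts of this list are near that background. SLC19A1, the reduced folate carrier, had 124 and 127 CPM of mRNA in mut and 179.7 and 180.2 CPM in wt (log2 fold change -0.52, adjusted p = 2.7e-13). FPGS, which adds glutamates and so retains folates, fell by 0.31, while GGH, which removes them, rose by 0.40. GART, an enzyme of purine synthesis that uses formyl folate, rose by 0.22, and DLD, shared by the glycine cleavage system and several dehydrogenase complexes, rose by 0.49. In footprints 13 were tested, 2 rose (DLD 0.64, GART 0.22), 2 fell (FPGS -0.47, SLC19A1 -0.41) and 9 did not pass, among them GGH at 0.27 (adjusted p = 0.0520), where 10.3% of all genes tested rose and 11% fell. In footprints per mRNA 0 of 13 passed. Without 1 library, calls were lost for GART mRNA (0.18 without the second wt library), GGH mRNA (0.25 without the first mut library), and the footprints of SLC19A1 (-0.28) and FPGS (-0.32) without the first mut footprint library. FPGS footprints also lost it without the second wt library (-0.40), and GART footprints without the second wt (0.14), the first mut (0.14) or the second mut (0.27) library. With DESeq2 the calls of FPGS in mRNA (adjusted p = 0.0565) and of FPGS (0.158), SLC19A1 (0.0869) and GART (0.234) in footprints were lost. With the density trend removed, FPGS became -0.14 in mRNA (adjusted p = 0.158) and -0.35 in footprints (adjusted p = 0.0539), and without the low-count filter GART became 0.20 in footprints (adjusted p = 0.0729). GLDC, AMT and GCSH, the components particular to glycine cleavage, had 0 or 1 read in every library, which is below the 3 counts that a count of 0 allows.

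Of 15 genes that carry or use serine, 0 rose and 2 fell among 13 tested in mRNA, where 18.9% of all genes tested rose and 18.9% fell. SLC1A5, a neutral amino acid carrier, fell by 0.32 and PTDSS2, a phosphatidylserine synthase, by 0.39. With the density trend removed PTDSS2 became -0.14 in mRNA and was not called (adjusted p = 0.159). In footprints, where 10.3% of all genes tested rose and 11% fell, 3 of 12 rose (PTDSS1 0.38, SFXN1 0.28, SLC38A2 0.21) and 2 fell. PTDSS2 fell by 0.66 and CBS by 1.55, the latter on 2 and 4 footprint reads in mut and 17 and 23 in wt. The 2 reads of CBS in the first mut library lie below the 3 counts that a count of 0 allows. All 3 rises were lost with DESeq2 (adjusted p = 0.0678 for PTDSS1, 0.347 for SFXN1 and 0.0773 for SLC38A2) and with the density trend removed, where PTDSS1 became 0.23, SFXN1 0.13 and SLC38A2 0.057. The SFXN1 call was also lost without the low-count filter (0.26). SFXN1 is the mitochondrial serine carrier, and CBS, the first enzyme of transsulfuration, has a near-identical copy in the human reference, so its counts are uncertain. In footprints per mRNA, where 1.78% of all genes tested rose and 2.33% fell, 2 of 12 rose, PTDSS1 by 0.37 (adjusted p = 0.0199) and SLC1A5 by 0.21 (adjusted p = 0.0193), and DESeq2 called neither (adjusted p = 0.183 for each). Without the low-count filter neither was called (0.34 for PTDSS1, 0.18 for SLC1A5), nor was SLC1A5 with the density trend removed (0.18). Without the first mut footprint library the footprint calls of PTDSS1 (0.31), PTDSS2 (-0.53), SLC38A2 (0.16), SFXN1 (0.021) and CBS (-0.79) were lost. SFXN1 also lost its call without either wt footprint library (0.26 and 0.29), and SLC38A2 without the second (0.15). In footprints per mRNA the PTDSS1 call was lost without the second wt mRNA (0.37), the second wt footprint (0.30) or the first mut footprint (0.30) library. The SLC1A5 call was lost without the second wt mRNA (0.18), the first mut mRNA (0.17), the first mut footprint (0.24) or the second mut footprint (0.19) library.

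Of ATF4 and 18 of its known targets outside the pathway, 17 were tested, and the list moved both ways. In mRNA 5 rose and 7 fell, where 18.9% of all genes tested rose and 18.9% fell, among them ATF5 at 1.13 and ASNS, the asparagine synthetase, at 0.46 upward, and DDIT4 at -0.47 and CEBPB at -0.52 downward. In footprints 5 rose and 4 fell, where 10.3% of all genes tested rose and 11% fell. ATF5 footprints rose by 1.91, with a 95% interval of 1.14 to 2.69 (1.74 and not called without the first mut footprint library). They rest on 19 and 10 reads in mut and 8 and 9 in wt. ATF4 itself had 519 and 529.7 CPM of mRNA in mut and 529.7 and 525 CPM in wt, so the groups overlapped. Its footprints were 58.2 and 55.4 CPM in mut and 81.9 and 88.8 CPM in wt (log2 fold change -0.58, adjusted p = 0.00407), a call lost without the first (-0.63) or the second (-0.56) mut footprint library. In footprints per mRNA, where 1.78% of all genes tested rose and 2.33% fell, ATF4 fell by 0.58 (adjusted p = 0.0303) and SESN2 rose by 0.54 (adjusted p = 0.0043). The SESN2 call was lost without the second mut footprint library (0.34, adjusted p = 0.273) and with DESeq2 (adjusted p = 0.0593). That of ATF4 was lost with DESeq2 (adjusted p = 0.0964), and without the second wt (-0.52, adjusted p = 0.152), the first mut (-0.62, adjusted p = 0.247) or the second mut (-0.55, adjusted p = 0.155) footprint library.

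**Figure D5:**
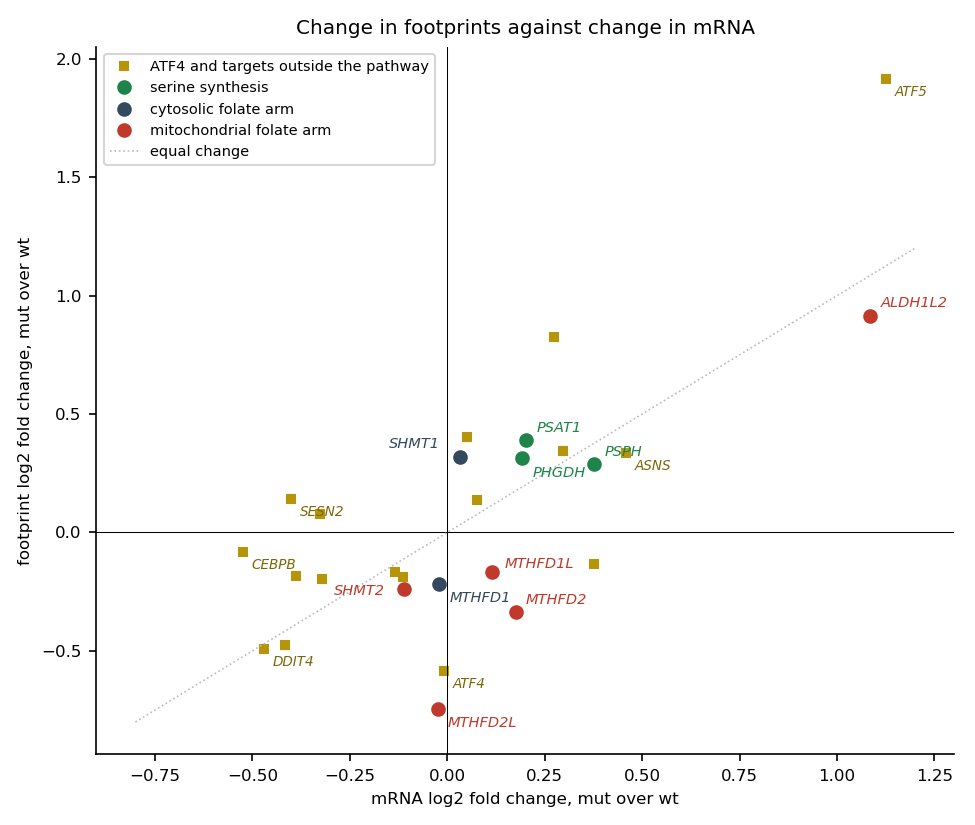
Log2 fold change, mut over wt, in footprints (vertical) against that in mRNA (horizontal), for the 10 enzymes (circles, coloured by arm) and for ATF4 and its targets outside the pathway (squares), with the line of equal change dotted. MTHFD2 sits right of 0 in mRNA (0.18) and below 0 in footprints (-0.34), whereas the 3 serine synthesis genes lie in the upper right.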

How the data were processed

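The deposited values are raw read counts per Ensembl gene, with 1 library per file. Tools named in the submitters' processing notes, without roles or versions, are STAR, Bowtie2, featureCounts, Trimmomatic and cutadapt, with the builds hg38 and GRCh38. The counted feature, the strand setting and the treatment of multiply matching reads were not given in the sources used here. Per the labels' protocols, cDNA was primed with oligo(dT), and footprints of 25 to 40 nucleotides were cut from a gel and depleted of rRNA.

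The deposited counts went into edgeR 4.0.16 under R 4.3.3 (glmQLFit with legacy set to FALSE, glmQLFTest). TMM factors were taken within an assay, and filterByExpr chose the genes. The mRNA and footprint comparisons used 4 libraries each. Footprints per mRNA were the interaction of genotype and assay over 8 libraries. Calls needed an adjusted p under 0.05 (Benjamini-Hochberg, over all genes tested), and SE values were taken from the F statistic. The fits were also run on simulated counts with the same coefficient of variation for every gene. Such counts cannot show how the fits behave where library spread is larger or varies between genes. The 10 members passed the filter in all 3 comparisons.

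Members and lists were chosen with earlier results of these data known. The text names the 10 members, DNMT3A, up to 4 genes with the smallest p of each other list in a comparison, and the 3 genes most like PHGDH, MTHFD2 and ALDH1L2 that averaged 100 counts or more in both assays; SFXN1, GLDC, AMT and GCSH were added after their values were seen. Of the genes most like PHGDH, 1 is not reported here. Replicate libraries of a group differed beyond sampling noise over genes with at least 1000 summed counts (chi-square per degree of freedom 1.19 to 2.10). Over genes with at least 10 summed counts it was 1.31 in mut and 1.08 in wt mRNA. There it was 0.93 in mut and 0.99 in wt footprints, so those footprint replicates showed no spread beyond sampling noise. Each library was taken as 1 sample. Names matched for 20407 of 20453 IDs. Intervals of fold changes hold both counting error and library spread, and reads are not independent molecules. Alternatives were RLE factors, DESeq2 1.42.0, the older quasi-likelihood method, no filter, an assumed coefficient of variation of 10%, removal of the gene density trend, a replicate block, and leaving out each library.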

Additional observations from a re-analysis of the deposited data

Results flagged for a closer look

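MTHFD2 stood out because the genotype effect differed between the 2 assays by the interaction test: the footprint change minus the mRNA change was -0.51 on the log2 scale (edgeR, adjusted p = 2.4e-08), with both mut libraries above both wt libraries in mRNA and below both in footprints. The cause was not tested.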

How the results depend on the processing

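MTHFD2 in footprints per mRNA passed in 15 of 16 settings and ALDH1L2 in mRNA in 11 of 11. Of the 10 enzymes, the 6 called in mRNA became 3 with DESeq2 1.42.0, 1 with an assumed coefficient of variation of 10%, 3 with the density trend removed, and 3 to 5 without 1 library. The 6 called in footprints became 3 with DESeq2, 1 with 10% and 2 to 6 without 1 library, and 2 is the value without the first mut footprint library. DESeq2 gave no adjusted p for 1 enzyme in mRNA and 4 in footprints, so 1 of 4 comparable footprint calls was lost. The 1 called in footprints per mRNA became 0 with 10%. Over all genes, DESeq2 called 1467 mRNAs, 397 genes by footprints and 132 by footprints per mRNA, 10% gave 313, 288 and 13, and leaving out 1 library gave 2281 to 3839, 274 to 1808 and 136 to 446.

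Replicate numbers are shared by mut and wt, and same-numbered libraries deviated together weakly. The correlation was 0.11 between mut and wt mRNA and 0.10 between mut and wt footprints. Between the assays it was 0.055 in mut and 0.063 in wt. With 2 libraries per group, such values cannot show whether same-numbered libraries share more than a number. With the replicate block 4166 mRNAs were called, 2074 genes by footprints and 495 by footprints per mRNA, or 602 with the library pair as the block. No enzyme lost a call under any block.

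With the mean of log2 CPM in place of summed CPM, the arm share difference became 3.71 percentage points in mRNA and -2.50 in footprints; without 1 library it was 0.395 to 0.85 and -1.46 to -0.73.

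Some directions turned, with no test passed except where given. With the density trend removed, mRNA values became 0.078 for ATF4, -0.033 for MTHFD1L, 0.064 for SHMT2 and -0.16 for PTDSS1 (adjusted p = 0.0145). Without the filter ATF4 mRNA was 0.0031. Leaving out 1 mRNA library gave -0.016 to 0.0080 for ATF4, -0.075 to 0.027 for MTHFD1, -0.0725 to 0.044 for MTHFD2L, -0.0072 to 0.030 for PTDSS1 and -0.11 to 0.24 for SHMT1 in mRNA. DNMT3A footprints became 0.0037 with DESeq2, 0.0050 with 10% and 0.017 with the replicate block, and -0.079 to 0.084 without 1 library. Leaving out 1 library gave -0.064 to 0.40 for SESN2 footprints and -0.37 to 0.0079 for ALDH1L2 footprints per mRNA. The cause was not tested.

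The mut footprint libraries, with 603360 and 944824 counts, limit the footprint values most, and PSPH, MTHFD2L, SHMT1 and ALDH1L2 rest on 20 to 129 reads per footprint library.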
